A study of Caenorhabditis elegans with 8 samples.

Results

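Expression of 7 *C. elegans* genes of the cytosolic heat shock system was compared between *dyf-1(mn335)* and wild-type worms. They are *hsf-1* (Y53C10A.12), *hsb-1* (K08E7.2), *hsp-1* (F26D10.3), *hsp-70* (C12C8.1), *hsp-110* (C30C11.4), *sti-1* (R09E12.3) and *cdc-37* (W08F4.8), 7 of the 25498 genes with a probe set of their own on the array. A probe set, the group of probes that reads 1 transcript, was taken where the annotation of the platform gives it only that gene symbol, and each of the 7 genes has 1 such probe set. The *dyf-1(mn335)* mutant, which has defective sensory cilia, and the wild-type strain N2 Bristol were each measured with 4 arrays. Each sample was total RNA of a pool of whole, age-synchronised hermaphrodites at day 1 of adulthood, with no treatment named in the labels. By the study's methods, the worms for RNA were all grown at the same temperature. The mutation is present in all cells of the animal. In whole worms, a change in the number of cells that express a gene and a change in RNA per cell cannot be told apart. The labels number the replicates but do not say that they came from separate cultures. The study's legends for the array heat maps describe the 4 as biologically independent. The p-values measure the spread between these samples.

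HSF-1 is the heat shock transcription factor of the worm. It acts as a trimer that binds heat shock elements in the promoters of chaperone genes, and besides the response to heat it is known for its part in development and in the control of lifespan. HSB-1 is a small protein that binds HSF-1 and inhibits it. HSP70 chaperones bind unfolded stretches of proteins in cycles of ATP hydrolysis. HSP110 proteins exchange the nucleotide of HSP70 and work with it in the dissolution of aggregates, STI-1 is the worm relative of HOP, which links HSP70 to HSP90, and CDC-37 in other eukaryotes brings protein kinases to HSP90.

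The values are log2 expression values after RMA (robust multi-array average, which corrects background, equalises the distributions of the arrays and summarises the probes of a probe set). They serve to compare 1 gene between arrays and not to rank genes against each other, since probes differ in affinity. The *dyf-1* transcript itself had a log2 fold change of 1.18 (limma, adjusted p = 0.0031), but no source used here gives the lesion of the allele, and the value checks no label. The array of wild-type replicate 4 stood apart. Over all 29317 probe sets it correlated with wild-type replicates 1 to 3 at r = 0.958 to 0.974 and with *dyf-1(mn335)* replicates 1 to 3 at 0.976 to 0.978, whereas wild-type replicates 1 to 3 correlated with each other at 0.987 to 0.992. *dyf-1(mn335)* replicate 4 was nearer to its own strain (0.978 to 0.984) than to wild-type replicates 1 to 3 (0.957 to 0.961), but below the 0.993 to 0.994 among the other mutant arrays. Results are therefore given with and without these 2 arrays, a choice made after seeing the data for the pair of them.

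None of the 7 genes was called higher or lower in *dyf-1(mn335)* with 0.01 as the limit of the adjusted p for a call. Of all probe sets, 6.56% were called higher and 3.46% lower. None had strains whose arrays did not overlap, which was the case for 23.7% of all probe sets. With 7 genes, 0 calls in each direction lie close to the background of calls. An unadjusted p under 0.05 was reached by *hsb-1* and *hsp-70*, both lower in the mutant, against 39.0% of all probe sets, or 20.0% for lower ones. At an adjusted p under 0.05, at which 13.1% of the probe sets were higher and 11.7% lower, still no gene of the 7 passed. The log2 fold change was positive for 5 genes and negative for 2, with a median of 0.12 against -0.04 over all probe sets, and its median size was 0.43 against 0.35.

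**Figure D1:**
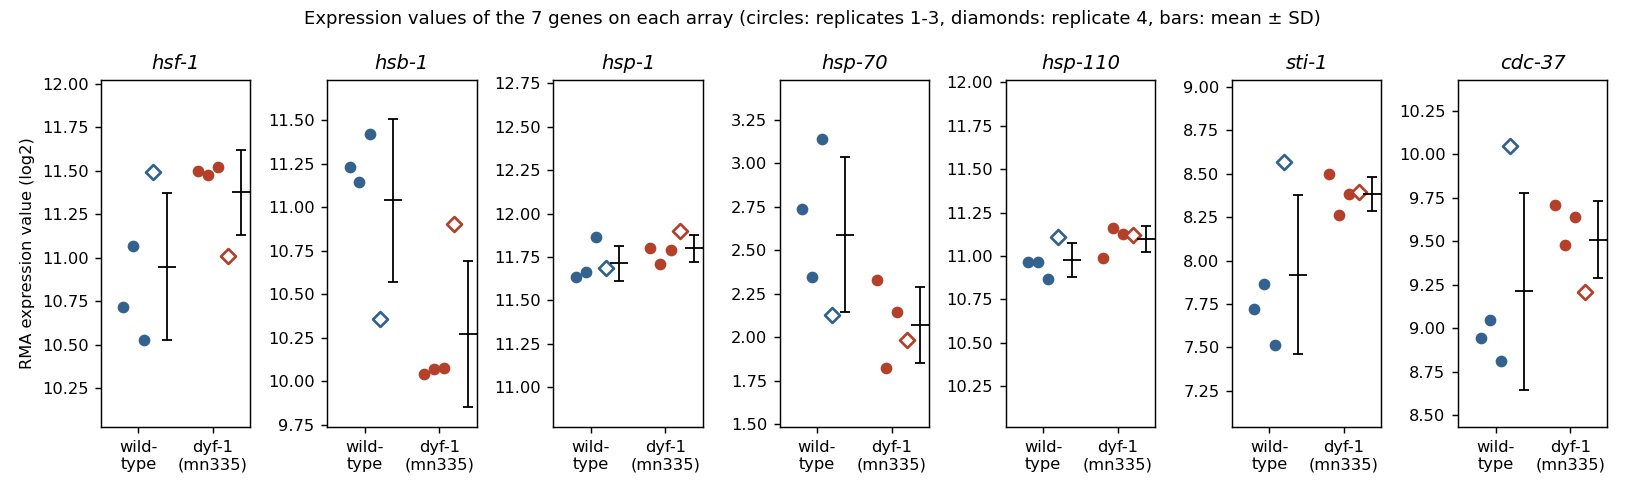
RMA expression values (log2) of the 7 genes on each of the 8 arrays, 1 panel per gene, each with an axis of the same span. Circles are replicates 1 to 3, open diamonds replicate 4, and bars the mean ± SD of 4 arrays. The wild-type diamond of *hsf-1*, *hsb-1*, *sti-1* and *cdc-37* lies far from the wild-type circles, on the side of the mutant, and the *hsp-1* and *hsp-110* values are close together in both strains.

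The transcription factor gene *hsf-1* was at 11.50, 11.47, 11.52 and 11.01 in *dyf-1(mn335)* replicates 1 to 4 and at 10.72, 11.06, 10.52 and 11.49 in wild-type replicates 1 to 4. Mutant replicates 1 to 3 were nearly equal (SD 0.025), and the 2 strains overlapped because wild-type replicate 4 reached the level of the mutant while mutant replicate 4 lay among the lower wild-type values. The means were 11.37 ± 0.25 and 10.95 ± 0.42 (SD, n = 4). The log2 fold change was 0.43 (1.34-fold, standard error 0.23, 95% interval -0.08 to 0.93), which did not pass the test (adjusted p = 0.192 from limma, exact permutation p = 0.2). Of all probe sets, 57.0% changed by less in either direction.

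The *hsb-1* gene, which encodes the inhibitor of HSF-1, had a negative log2 fold change. Its values were 10.04, 10.07, 10.07 and 10.90 in the mutant and 11.23, 11.14, 11.42 and 10.36 in wild-type. Again mutant replicates 1 to 3 were nearly equal (SD 0.016), mutant replicate 4 lay 0.84 above their mean, and wild-type replicate 4 lay 0.91 below the mean of the other wild-type arrays, so that both replicate 4 arrays lay towards the other strain. The means were 10.27 ± 0.42 and 11.04 ± 0.47 (SD, n = 4), a log2 fold change of -0.77 (1.70-fold lower, standard error 0.28, 95% interval -1.39 to -0.15). At an adjusted p of 0.0698 from limma (unadjusted p = 0.0205) it was the smallest adjusted p of the 7 genes and did not pass the threshold, nor did the exact permutation test reach 0.05 (p = 0.0571).

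The difference between *hsf-1* and *hsb-1* on the same array was used to ask whether factor and inhibitor changed unequally. The difference itself depends on both sets of probes and only its change between strains can be read. It was 1.45, 1.40, 1.45 and 0.11 in the mutant arrays and -0.52, -0.08, -0.90 and 1.13 in the wild-type arrays. The highest wild-type value is that of replicate 4 and the lowest mutant value is that of replicate 4, and each lies within the range of the other strain. The mutant mean of 1.103 ± 0.67 exceeded the wild-type mean of -0.09 ± 0.88 (SD, n = 4) by 1.19 (standard error 0.55, exact permutation p = 0.0571, adjusted over the 4 pairs compared p = 0.229). Without wild-type replicate 4 the difference was 1.60, and without both replicate 4 arrays 1.93.

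**Figure D2:**
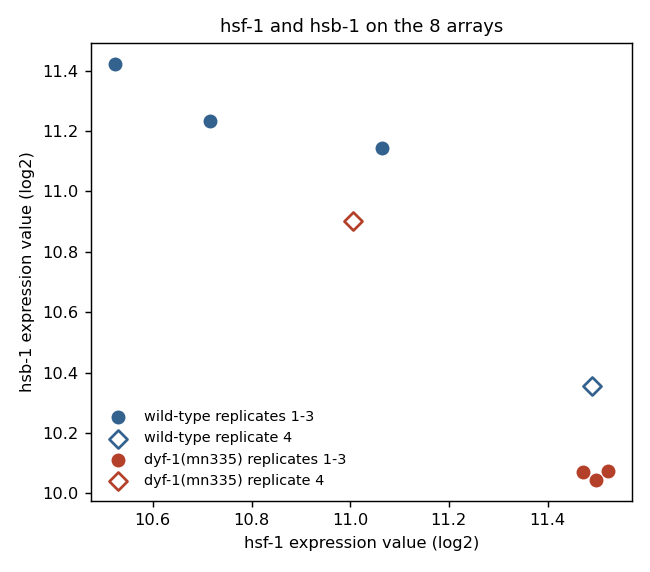
Expression values (log2) of *hsf-1* on the horizontal axis and *hsb-1* on the vertical axis, 1 point per array. Mutant replicates 1 to 3 lie together at high *hsf-1* (11.47 to 11.52) and low *hsb-1* (10.04 to 10.07), wild-type replicates 1 to 3 at the other end, wild-type replicate 4 beside the mutant arrays and mutant replicate 4 beside the wild-type ones.

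Among the HSP70 genes, *hsp-1* encodes the constitutive cytosolic HSP70 (HSC70). It was at 11.80, 11.71, 11.79 and 11.90 in the mutant and at 11.64, 11.67, 11.86 and 11.69 in wild-type. All 8 values lie within a narrow range, the strains overlap, and wild-type replicate 4 lay only 0.04 below the mean of wild-type replicates 1 to 3 (a difference of -0.04). The means of 11.80 ± 0.08 and 11.71 ± 0.10 (SD, n = 4) gave a log2 fold change of 0.09 (1.06-fold, standard error 0.12, adjusted p = 0.619 from limma). The 95% interval of -0.18 to 0.36 bounds the change at this precision.

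The *hsp-110* gene, for the HSP110 partner of HSP70, was as even. Its values were 10.99, 11.16, 11.13 and 11.12 in the mutant and 10.97, 10.96, 10.87 and 11.11 in wild-type. Of the mutant arrays 3 lay above every wild-type array, and mutant replicate 1 lay between wild-type replicates 1 and 4. The means were 11.10 ± 0.08 and 10.98 ± 0.10 (SD, n = 4), with a log2 fold change of 0.12 (1.09-fold, standard error 0.12, 95% interval -0.15 to 0.39, adjusted p = 0.480 from limma, exact permutation p = 0.0571). After centring the arrays on their medians the middle fold change over all probe sets went from -0.04 to -0.19 (log2), and the change was -0.07 for *hsp-1* and -0.03 for *hsp-110*, so that neither has a settled direction. The within-array difference of *hsp-1* and *hsp-110* changed by -0.03 between the strains (standard error 0.11, exact permutation p = 0.771, adjusted p = 0.771). It took the other sign without mutant replicate 2 (0.02) or without wild-type replicate 3 (0.05).

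The third HSP70 gene, *hsp-70*, is known as a heat-inducible one that is barely transcribed in unstressed worms. Its probe set was dim, with 5.99% of all probe sets dimmer on average. It was at 2.33, 1.82, 2.14 and 1.98 in the mutant and at 2.74, 2.34, 3.14 and 2.13 in wild-type. The highest 3 values were wild-type ones, and the lowest wild-type value, that of replicate 4, lay among the mutant ones. The means of 2.07 ± 0.22 and 2.59 ± 0.45 (SD, n = 4) gave a log2 fold change of -0.52 (standard error 0.23, 95% interval -1.03 to -0.01), which did not pass after adjustment (adjusted p = 0.123 from limma, exact permutation p = 0.0857). These values lie near the lower end of the range of the arrays.

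The cochaperone gene *sti-1* was at 8.50, 8.26, 8.38 and 8.40 in the mutant and at 7.72, 7.87, 7.51 and 8.57 in wild-type. All 4 mutant arrays lay above wild-type replicates 1 to 3, and wild-type replicate 4 was the highest of the 8 arrays. The means were 8.38 ± 0.10 and 7.92 ± 0.46 (SD, n = 4). The log2 fold change was 0.47 (1.38-fold, standard error 0.22, 95% interval -0.02 to 0.95, adjusted p = 0.144 from limma, exact permutation p = 0.143).

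The *cdc-37* gene, for the kinase cochaperone of HSP90, had a similar pattern. It was at 9.71, 9.48, 9.64 and 9.21 in the mutant and at 8.94, 9.05, 8.81 and 10.05 in wild-type. As for *sti-1*, each mutant array was above wild-type replicates 1 to 3 and wild-type replicate 4 was above all mutant arrays, 1.12 above the other wild-type arrays. The means of 9.51 ± 0.22 and 9.21 ± 0.57 (SD, n = 4) differed by 0.30 (1.23-fold, standard error 0.27, 95% interval -0.30 to 0.90, adjusted p = 0.437 from limma, exact permutation p = 0.371). The within-array difference of *sti-1* and *cdc-37* changed by 0.17 between strains (standard error 0.12, exact permutation p = 0.229, adjusted p = 0.305), and that of *hsp-1* and *sti-1* by -0.38 (standard error 0.26, exact permutation p = 0.171, adjusted p = 0.305). For 4 arrays against 4 the smallest p that this exact test can give is 0.0286, so that no pair could have passed at 0.01.

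Leaving out wild-type replicate 4 changed which genes passed. *hsb-1* was then 1.99-fold lower in the mutant (log2 fold change -0.995, standard error 0.22, adjusted p = 0.0078 from limma) and *sti-1* 1.61-fold higher (0.68, standard error 0.13, adjusted p = 0.0039), and both were called. In the same fit 13.3% of all probe sets were called higher and 12.9% lower, so that 1 of 7 in each direction is near the background. *hsf-1* was at 0.61 with an adjusted p of 0.0291, *cdc-37* at 0.58 with 0.0165 and *hsp-70* at -0.67 with 0.0303 in limma, all short of the threshold. *hsp-1* (0.08, adjusted p = 0.639) and *hsp-110* (0.16, adjusted p = 0.283) hardly moved. Without *dyf-1(mn335)* replicate 4 instead, where 5.99% of the probe sets were called higher and 2.46% lower, none of the 7 was called, and *hsb-1* was at -0.98 (limma, adjusted p = 0.0252).

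Without both replicate 4 arrays, 4 of the 7 genes were called: *hsf-1* (0.73, standard error 0.15, adjusted p = 0.0064), *sti-1* (0.68, standard error 0.14, adjusted p = 0.0049) and *cdc-37* (0.68, standard error 0.12, adjusted p = 0.0032) higher, and *hsb-1* (-1.21, standard error 0.12, adjusted p = 0.000197, all from limma) lower. This stands against 17.0% of all probe sets called higher and 16.3% called lower in that fit. *hsp-1* stayed at 0.04, *hsp-110* at 0.16 and *hsp-70* at -0.64 (adjusted p = 0.0492), none of them called. The direction of the log2 fold change of each of the 7 genes was the same in these 3 fits as on all 8 arrays.

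**Figure D3:**
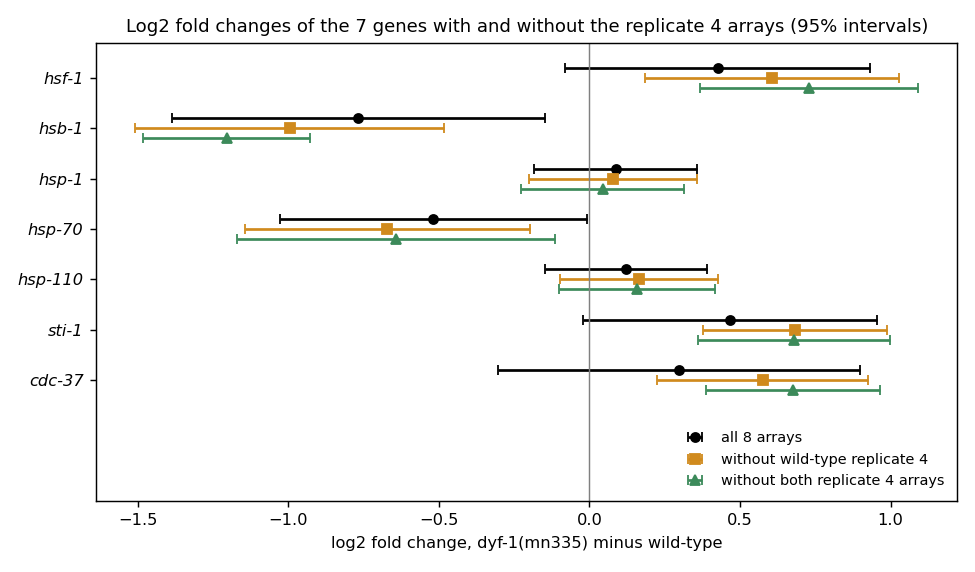
Log2 fold changes of the 7 genes, *dyf-1(mn335)* minus wild-type, with all 8 arrays (circles), without wild-type replicate 4 (squares) and without both replicate 4 arrays (triangles). Bars are 95% intervals. For *hsf-1*, *sti-1* and *cdc-37* the interval includes 0 with all arrays and not in the other fits, and for *hsp-1* and *hsp-110* it includes 0 in all of them.

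The size of the replicate 4 deviation differed between the genes. Against the mean of wild-type replicates 1 to 3, wild-type replicate 4 was higher for *cdc-37* (1.12), *sti-1* (0.87), *hsf-1* (0.72) and *hsp-110* (0.17), and lower for *hsb-1* (-0.91), *hsp-70* (-0.61) and *hsp-1* (-0.04). Mutant replicates 1 to 3 differed from the same mean by 0.68, 0.68, 0.73 and 0.16, and by -1.21, -0.64 and 0.04, in that order of genes. The same 5 genes had the larger values of both kinds, and the 2 differences, which share wild-type replicates 1 to 3 as their reference, had the same sign for all but *hsp-1*. Mutant replicate 4 departed from the other mutant arrays for *hsf-1* (-0.49), *cdc-37* (-0.40) and *hsb-1* (0.84), but not for *sti-1* (0.02) or *hsp-110* (0.03). For *hsp-1* it differed by 0.14, with an SD of 0.049 among mutant replicates 1 to 3. For *hsp-70* it differed by -0.12, with an SD of 0.26.

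**Figure D4:**
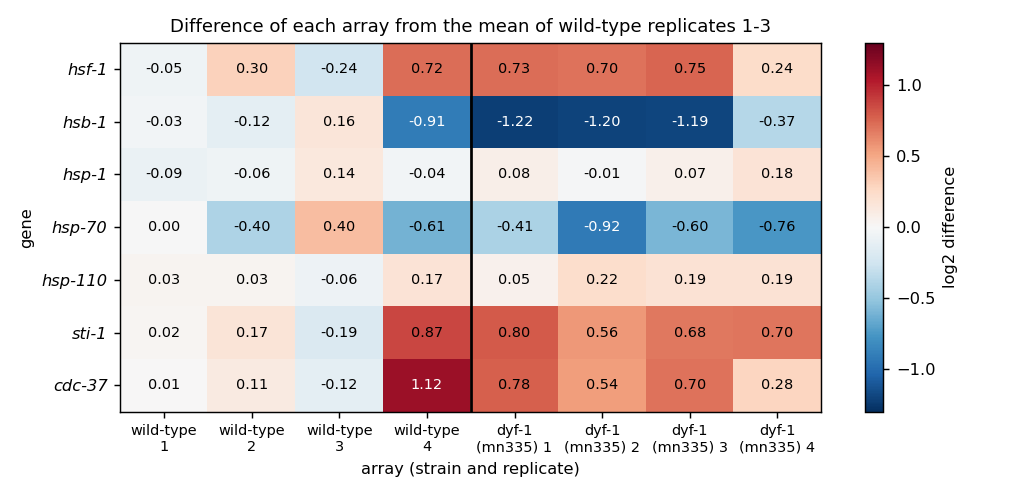
Difference of each array (columns, wild-type 1 to 4 and then *dyf-1(mn335)* 1 to 4) from the mean of wild-type replicates 1 to 3, in log2 units, for the 7 genes (rows). Red is higher and blue lower, and each cell prints its value. Wild-type replicate 4 has the colours of the mutant arrays in the *hsf-1*, *hsb-1*, *hsp-70*, *sti-1* and *cdc-37* rows.

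Marker genes of tissues also shifted on the replicate 4 arrays. The mean log2 level of 8 body muscle genes was 9.42 to 10.22 in wild-type and 10.20 to 10.53 in *dyf-1(mn335)*, with the 10.22 in wild-type replicate 4 (1 of 8 genes called higher). That of 10 hypodermis and moulting genes was 6.11 to 7.26 in wild-type, 7.26 in replicate 4, and 6.95 to 7.71 in the mutant (2 called higher, 1 lower, 2 genes dim with a mean under 5). The level of 16 germline and oocyte genes was 10.41 to 10.92 in wild-type, again highest in replicate 4, and 10.35 to 10.77 in the mutant (none called). In the muscle, hypodermis and germline lists the lowest mutant level (10.20, 6.95 and 10.35) was that of *dyf-1(mn335)* replicate 4. The strains did not overlap in the mean level of 10 neuronal genes, at 8.11 to 8.53 in wild-type and 9.11 to 9.18 in the mutant (6 called higher). There wild-type replicate 4, at 8.53, was the wild-type array nearest to the mutant but below every mutant array. The strains did not overlap either for 8 sperm genes (4.87 to 5.36 in wild-type, 4.48 to 4.67 in the mutant, 2 called lower, 4 genes dim) or 9 intestinal genes (9.87 to 9.99 and 9.68 to 9.85, 1 called higher and 2 lower). Wild-type replicate 4 was the wild-type array nearest to the mutant for the intestinal genes (9.87) and farthest from it for the sperm genes (5.36). Whether these tissue differences have a part in the values of the 7 genes was not tested.

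Other genes of the pathway were read from the same fit in lists chosen with earlier results known. Of 37 such genes 1 was called higher and none lower, and the median log2 fold change was 0.007. At 0.05 without adjustment 5 were higher and 6 were lower (39.0% of all probe sets in either direction). The strains did not overlap for 6 of the 37 genes, against 23.7% of all probe sets. The called gene is *jmjd-3.1*, a histone demethylase gene known in *C. elegans* to sustain the heat shock response in early adulthood. It was at 9.15, 9.20, 8.81 and 8.50 in the mutant and at 7.49, 7.69, 7.63 and 8.37 in wild-type, without overlap. Its log2 fold change was 1.12 (2.18-fold, standard error 0.23, adjusted p = 0.0089 from limma). This call lay close to the threshold and was lost when any 1 of replicates 1 to 3 of either strain was left out. Without wild-type replicate 4, 5 of the 37 genes were called higher and 5 lower, where 13.3% and 12.9% of all probe sets were. Without both replicate 4 arrays they were 7 and 7, where 17.0% and 16.3% of all probe sets were called, so that both pairs of counts lie near the background.

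Beside *jmjd-3.1*, the regulators of HSF-1 (9 genes, median 0.12) had no call. *hpk-1*, a kinase gene named here after its values were seen, had a larger log2 fold change of 1.15 with a wide error (standard error 0.52, adjusted p = 0.137 from limma), and its wild-type replicate 4 lay 2.04 above the other wild-type arrays. In the HSP70 family, 7 further genes had a median of 0.14 and no call. *stc-1*, an HSP70 relative, was at -0.67 (adjusted p = 0.075 from limma), and *hsp-4*, the inducible HSP70 of the endoplasmic reticulum, at 0.28 (adjusted p = 0.113), with no overlap between the strains.

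Of 8 further cochaperones of HSP70 (median 0.08), none was called. The nucleotide exchange factor gene *bag-1* had the largest difference among all the pathway genes. It was at 9.67, 9.88, 9.88 and 10.12 in the mutant and at 11.55, 11.46, 11.74 and 9.88 in wild-type. Only wild-type replicate 4 lay among the mutant arrays. The log2 fold change of -1.27 (2.41-fold lower, standard error 0.37, adjusted p = 0.0345 from limma) was -1.70 without that array (adjusted p = 0.000102). *chn-1*, for the CHIP ubiquitin ligase, was at -0.47 with no overlap (adjusted p = 0.0395).

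HSP90 and its cochaperones (9 genes, median -0.06) had no call either. *hsp-90* itself, for the cytosolic HSP90, was at -0.06 (standard error 0.12, adjusted p = 0.735 from limma). The smallest p-values were those of the phosphatase gene *pph-5* (0.77, adjusted p = 0.0721) and of *hsp-75* (-0.56, adjusted p = 0.0788), which encodes the mitochondrial HSP90. Of the 5 genes other than *hsp-70* in the list drawn up as heat-inducible (median -0.27), none was called and 3 were dim. They include *hsp-12.6* (-0.93, adjusted p = 0.0555 from limma, dim) and *hsp-4*. Whether heat induces each gene of this list was not tested. Its genes *hsp-16.1*, *hsp-16.11*, *hsp-16.48* and *hsp-16.49* have no probe set of their own and were left out. *aip-1*, also in this list, could not be matched to a probe set and was left out too. The HSP70 genes *F44E5.4* and *F44E5.5* share 2 dim probe sets, with log2 fold changes of -0.65 (standard error 0.58) and -0.31 (standard error 0.28), and cannot be read apart.

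**Figure D5:**
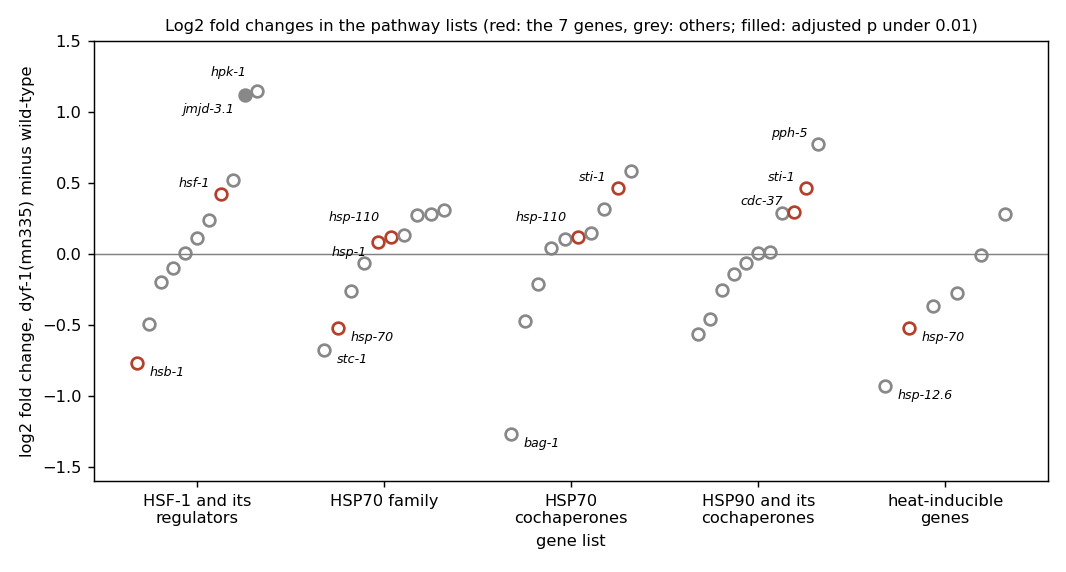
Log2 fold changes, *dyf-1(mn335)* minus wild-type on all 8 arrays, of the genes of 5 pathway lists, sorted within each list. Red circles are the 7 genes, grey circles the others, and a filled circle marks an adjusted p under 0.01. Some genes stand in 2 lists. *jmjd-3.1* is the only filled point, and *bag-1* is the lowest at -1.27.

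For each of the 6 genes that were not dim, the 2 genes of 13879 with the most similar pattern over the 8 arrays were found by Pearson's r, as a description without a test, since the arrays share both the strain and the replicate 4 difference. They were *gfi-2* and *sec-16A.1* for *hsf-1* (r = 0.998 for both) and *tag-290* and *F52B5.2* for *hsb-1* (0.997 for both). For *sti-1* they were *Y54F10AM.11* (0.993) and *dbl-1* (0.986), and for *cdc-37* *mac-1* and *R11F4.1* (0.995 for both). The 2 even genes had less similar neighbours, *F47E1.2* (0.957) and *F59B10.5* (0.954) for *hsp-1*, and *Y69E1A.10* (0.978) and *sup-17* (0.970) for *hsp-110*. None of these neighbours was called.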

How the data were processed

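The authors made cDNA from total RNA of 4 *dyf-1(mn335)* and 4 wild-type samples for Affymetrix *C. elegans* gene arrays. They deposited log2 values after RMA in the R package oligo, so that background correction and quantile normalisation are already in them. No value was missing in the 29317 probe sets. By the annotation of the platform 25546 have 1 gene, 646 several and 3125 no gene, and the first kind stands for 25498 genes by Entrez ID. Groups come from the sample titles, and no arrays were identical.

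All probe sets were fitted with limma 3.58.1 under R 4.3.3 (lmFit, then eBayes; two-sided, no covariates), with Benjamini-Hochberg adjustment over all of them. Calls were made at 0.01 after adjustment, as in the study's legends. Single values also had an exact two-sided permutation test. The members and gene lists were chosen with earlier results of these data known. The genes named are the 7 members, every called gene of the pathway lists or, where none was called, up to 2 per list with the smallest p, and the 2 genes nearest to each member, and *hpk-1* and *hsp-90* were added after their values were seen. In simulated data of 29317 probe sets for this comparison, the fit found 21% of the 100 given a log2 change of 1, and 66% of the 100 given a log2 change of 2. Only these probe sets were changed, each with a mean above 5, and the noise was drawn independently for each value. In the real data far more probe sets were called, and the replicate 4 arrays stood apart. These rates are therefore not the power of the real comparison. Precision is limited by the number of arrays. The alternatives tried were a threshold of 0.05, a filter at a mean log2 value of 5, an intensity trend with robust spread, array weights, median centring, cyclic loess, a replicate block, averaging the probe sets of a gene, and leaving out arrays. Promoter sequences were not used here. Python 3.11.15 with matplotlib 3.10.9 drew the figures.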

Additional observations from a re-analysis of the deposited data

Results flagged for a closer look

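In 4 of 22 groups of 4 arrays, 1 array lay far from the others by Dixon's test. Chance gives about 1 in 20 for independent groups. These groups share arrays and genes, so that their count cannot be set against that rate. In all 4 flagged groups the array was *dyf-1(mn335)* replicate 4. *hsf-1* was at 11.01 there and at 11.47 to 11.52 on the other mutant arrays. *hsb-1* was at 10.90 there and at 10.04 to 10.07 on the others. The within-array difference of *hsf-1* and *hsb-1*, which shares these values, was 0.11 against 1.40 to 1.45. That of *sti-1* and *cdc-37* was -0.81 against -1.26 to -1.21.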

How the results depend on the processing

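With array weights 5489 of the 29317 probe sets were called higher and 5391 lower. Of the 7 genes 2 were then higher, *hsf-1* (0.64) and *sti-1* (0.59), and 1 lower, *hsb-1* (-1.08). Of the other pathway genes 7 were higher and 7 lower. Without both replicate 4 arrays, an alternative chosen after seeing the data, 4977 probe sets (17.0%) were higher and 4781 (16.3%) lower. Of the 7 genes 3 were then higher, *hsf-1* (0.73), *sti-1* (0.68) and *cdc-37* (0.68), and 1 lower, *hsb-1* (-1.21). Of the other pathway genes 7 were higher and 7 lower. In both settings the calls over all probe sets rose as well, so that the added calls are not particular to the 7 genes. With the threshold at 0.05, 3848 probe sets passed as higher and 3419 as lower, and 2 other pathway genes were lower. Centring turned *hsp-1* (-0.068) and *hsp-110* (-0.034), gave 1653 probe sets lower and 0 other pathway genes higher, and cyclic loess also gave 0. Centring also took *hsf-1* to 0.27, *sti-1* to 0.31, *cdc-37* to 0.14, *hsb-1* to -0.92 and *hsp-70* to -0.67, none of them called. With the replicate block 236 probe sets were higher and 79 lower, no gene of the 7 was called and 0 other pathway genes were higher. The same-numbered arrays deviated from their strain means at r = -0.31, 0.01, -0.20 and -0.57. Deviations from a strain mean depend on each other, and the replicate 4 arrays stood apart in both strains. These r values therefore cannot show whether same-numbered samples belong together. The cause of the changes in calls between settings was not tested.

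Leaving out 1 array at a time gave 0 to 1 of the 7 genes higher and 0 to 1 lower, both calls only without wild-type replicate 4, against 932 to 3893 and 324 to 3788 probe sets and 0 to 5 and 0 to 5 other pathway genes. The log2 fold changes ran from 0.28 to 0.61 for *hsf-1*, -0.995 to -0.64 for *hsb-1*, 0.05 to 0.14 for *hsp-1*, -0.67 to -0.34 for *hsp-70*, 0.09 to 0.16 for *hsp-110*, 0.33 to 0.68 for *sti-1* and 0.16 to 0.58 for *cdc-37*. The changes of the within-array differences ran from 0.92 to 1.60 (*hsf-1* and *hsb-1*), -0.086 to 0.052 (*hsp-1* and *hsp-110*, with 0.02 and 0.052 as the turned values), -0.60 to -0.19 (*hsp-1* and *sti-1*) and 0.07 to 0.21 (*sti-1* and *cdc-37*). Their exact permutation p, adjusted over the 4 pairs, ran from 0.114 to 0.943, with the lowest value for *hsf-1* and *hsb-1* and for *hsp-1* and *sti-1* without wild-type replicate 4. The filter kept 15520 probe sets and left *hsp-70* out.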
